A study of Mus musculus with 12 samples.

Results

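The report covers 38 liver genes of blood clotting and complement, 20 clotting and 18 complement members, among 51912 Ensembl identifiers counted in the livers of 12 mice. Members were chosen by gene symbol from a fixed list, and each was matched to its Ensembl identifier in the deposited counts. The rule itself uses no measured value, but the members were chosen with earlier results of these data known. All 38 were matched, and all 38 passed the filter on low counts that left 18098 genes for testing. The 12 libraries form 4 groups of 3 animals: Mlkl-/- mice on a high-fat diet (HFD), Mlkl-/- mice on normal chow (ND), wild-type mice on HFD and wild-type mice on ND. Mlkl encodes a pseudokinase that ruptures cells at the end of necroptosis, a regulated and lytic way of dying, and the series title places it in diet-induced obesity and fatty liver. Per the sample labels each animal had 25 weeks of its diet, whereas the series text gives 16 to 25 weeks from an age of 8 to 9 weeks. The HFD held 36% fat and drew 59% of its energy from lipid. Animals were in the fed state and were picked by mean organ weight. Neither the strain background nor the place of the Mlkl deletion is stated in the labels.

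Hepatocytes make most of the circulating clotting and complement proteins. In clotting, a cascade of zymogens ends in thrombin, which cuts fibrinogen, a hexamer of paired alpha, beta and gamma chains, into fibrin. Plasmin dissolves fibrin again, and serpins and the protein C system restrain the cascade. Complement starts by the classical, lectin or alternative route, meets at C3 and C5, and ends in the membrane attack complex of C5b, C6, C7, C8 and C9. Fibrinogen, C3 and factor B are acute phase proteins, whose liver transcripts respond to interleukin-6 and related cytokines, and HNF1, HNF4 and C/EBP factors bind near many hepatocyte promoters.

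Promoters are printed for the 7 members with the largest called diet differences that had an entry: the fibrinogen genes Fga, Fgb and Fgg, the C5 gene Hc, and C8a, C8b and C9. The sequences come from RefSeq annotation of GRCm38.p6, the assembly behind mm10, and run 5′ to 3′ on the gene's own strand from 250 bases before the transcript start to 50 bases after it. Capitals mark matches, on either strand, to HNF1 (GTTAATNAT), the C/EBP core (TTNNGCAA), the interleukin-6 type II element (CTGGGAA) and STAT (TTCNNNGAA). The box searched as TATAAA, bound by the general transcription machinery close to many starts, is marked as well. Fga lies at chr3:83025903-83026202 (plus strand), Fgb at chr3:83049814-83050113 (minus strand), Fgg at chr3:83007474-83007773 (plus strand), Hc at chr2:35061363-35061662 (minus strand), C8a at chr4:104876349-104876648 (minus strand), C8b at chr4:104766067-104766366 (plus strand) and C9 at chr15:6445096-6445395 (plus strand).
Fga: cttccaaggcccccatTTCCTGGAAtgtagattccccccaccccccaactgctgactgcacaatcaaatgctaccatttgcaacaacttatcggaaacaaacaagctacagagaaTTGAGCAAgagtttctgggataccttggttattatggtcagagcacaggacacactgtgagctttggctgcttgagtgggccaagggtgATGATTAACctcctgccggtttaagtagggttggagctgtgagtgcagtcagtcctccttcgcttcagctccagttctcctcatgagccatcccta
Fgb: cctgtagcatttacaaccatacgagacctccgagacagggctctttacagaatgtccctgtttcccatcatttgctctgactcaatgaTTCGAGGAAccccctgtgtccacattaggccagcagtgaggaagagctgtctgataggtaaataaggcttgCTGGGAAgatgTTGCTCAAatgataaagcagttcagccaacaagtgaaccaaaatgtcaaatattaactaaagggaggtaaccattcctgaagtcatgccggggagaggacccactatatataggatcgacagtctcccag
Fgg: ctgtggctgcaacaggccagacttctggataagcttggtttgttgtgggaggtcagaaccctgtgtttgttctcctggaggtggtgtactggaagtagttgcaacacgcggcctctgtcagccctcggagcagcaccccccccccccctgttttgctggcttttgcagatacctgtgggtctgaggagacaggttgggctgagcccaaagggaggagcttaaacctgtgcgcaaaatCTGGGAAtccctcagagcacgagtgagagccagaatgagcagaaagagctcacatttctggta
Hc: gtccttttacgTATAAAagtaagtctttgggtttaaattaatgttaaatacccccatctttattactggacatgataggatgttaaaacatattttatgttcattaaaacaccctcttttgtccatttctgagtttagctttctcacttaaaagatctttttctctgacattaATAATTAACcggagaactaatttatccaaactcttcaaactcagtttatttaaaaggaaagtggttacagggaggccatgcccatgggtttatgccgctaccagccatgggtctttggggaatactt
C8a: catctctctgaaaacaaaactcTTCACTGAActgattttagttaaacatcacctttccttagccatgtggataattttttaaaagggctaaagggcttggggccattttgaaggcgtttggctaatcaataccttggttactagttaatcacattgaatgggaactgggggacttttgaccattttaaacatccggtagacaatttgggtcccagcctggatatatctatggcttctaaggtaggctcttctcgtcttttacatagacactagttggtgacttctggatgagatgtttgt
C8b: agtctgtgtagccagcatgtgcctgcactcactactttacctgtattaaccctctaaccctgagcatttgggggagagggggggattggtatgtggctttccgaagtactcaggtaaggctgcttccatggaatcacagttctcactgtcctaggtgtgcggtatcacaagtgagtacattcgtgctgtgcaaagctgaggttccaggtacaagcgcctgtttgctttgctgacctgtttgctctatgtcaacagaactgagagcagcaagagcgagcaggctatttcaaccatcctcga
C9: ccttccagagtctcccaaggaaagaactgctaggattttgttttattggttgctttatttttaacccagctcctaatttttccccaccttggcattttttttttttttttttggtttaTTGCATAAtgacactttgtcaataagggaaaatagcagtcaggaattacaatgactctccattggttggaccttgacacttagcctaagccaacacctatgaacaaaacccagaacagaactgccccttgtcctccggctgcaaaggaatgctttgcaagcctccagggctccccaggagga
An HNF1 match stands at -46 in the Fga window and at -77 in the Hc window. The C/EBP core stands at -135 in Fga, -80 in Fgb and -132 in C9, the type II element at -91 in Fgb and -13 in Fgg, and STAT at -234 in Fga, -162 in Fgb and -228 in C8a. The TATAAA box of Hc stands at -239. The C8b window held none of the searched motifs. Promoter entries were found for 30 of the 38 members. HNF1 matched in 4 of these 30 genes (C4bp, F13b, Fga and Hc), against 0.801% of all 32851 promoters in the table. The C/EBP core matched in 11 genes (10.8% of all promoters), the type II element in 7 (11.1%), STAT in 7 (8.3%) and the TATAAA box in 3 (13.6%). The interferon element ISRE (GAAANNGAA, 8.56%), HNF4 (CAAAGTCCA, 0.475%) and the full C/EBP palindrome (TTGCGCAA, 0.183%) matched in 0 of the 30. In the F9 and Masp2 windows the type II match overlapped a STAT match. These matches describe letters in a short window and say nothing of binding.

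Library totals ran from 19435391 to 32120426 counts, and a member had 459 to 307860 counts in a library. Mlkl itself had 9 to 34 counts in the 6 Mlkl-/- libraries and 72 to 252 in the 6 wild-type libraries. Together the 38 members held 3.06% to 4.36% of the counts in Mlkl-/- HFD, 3.80% to 5.75% in Mlkl-/- ND, 2.47% to 2.88% in wild-type HFD and 3.54% to 4.04% in wild-type ND libraries. The 10 hepatocyte markers, Alb and Apoa1 among them, summed to 57969 to 104354 CPM (counts scaled to a common library size), as the liver label would have it. The groups of members by role were also ranked by their genes' mean log2 CPM minus the mean over the 12 libraries. By this measure wild-type HFD replicate 2 was the lowest library for every role other than the lectin and classical routes. Those routes were lowest in Mlkl-/- HFD replicate 1. In an earlier analysis of these libraries 8 loci, Lars2 among them, had a summed level that split the libraries: 3484 to 9239 CPM in 5 of 6 HFD libraries and Mlkl-/- ND replicate 1, against 378 to 656 CPM in the other 6. Since all but 1 of the HFD libraries are in the high set, that level runs largely with the diet. Results are given with and without a term for it.

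In Mlkl-/- livers no member passed the test between HFD and ND, while in wild-type livers 8 of 38 were lower on HFD and 0 were higher. A member is called where edgeR's quasi-likelihood test, adjusted by Benjamini and Hochberg over all 18098 genes, gave a p under 0.05. The wild-type calls were 5 clotting members (Fga, Fgb, Fgg, Kng1 and Serpinf2) and 3 complement members (Hc, C8a and C9), against 2.21% of all tested genes called lower and 2.02% called higher. For Mlkl-/- livers 0.149% of all genes were called lower and 0.21% higher, and 15 members had an unadjusted p under 0.05 (4 clotting, 11 complement), beside 13.6% of all genes. DESeq2 called 0 clotting and 5 complement members in Mlkl-/- livers (Hc, Cfb, C8a and C9 lower and Mbl2 higher) and 10 and 7 in wild-type livers. With limma-voom the counts were 0 and 0 in Mlkl-/- and 5 and 4 in wild-type livers. Over all genes DESeq2 called 310 higher and 204 lower in Mlkl-/- livers, and 733 and 732 in wild-type livers. For limma-voom these were 28 and 20 in Mlkl-/- and 401 and 407 in wild-type livers. The difference between the diet effects of the genotypes (the interaction) was called for 0 members by edgeR, DESeq2 and limma-voom. Over all genes edgeR and limma-voom called 0 in either direction, while DESeq2 called 15 higher and 43 lower. At an unadjusted p under 0.05 stood 3 of the 38 members (F10, Klkb1 and Proc), or 7.89%, a smaller share than the 10.4% of all genes. Liver pieces hold several cell types, so fewer hepatocytes and less RNA per hepatocyte cannot be told apart here.

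With the diet effect averaged over both genotypes, which rests on all 12 libraries, 15 members were called. Of these, 14 were lower on HFD (5 clotting and 9 complement) and 1, Mbl2, was higher, against 3.62% of all genes called lower and 3.57% higher. The median log2 fold change was -0.30 over the clotting members and -0.40 over the complement members, beside -0.01 over all genes. Fga, Fgb, Fgg, Hc, C8a and C9 were called whichever single library was left out. Of the 12 fits without 1 library, C2 was called in 8, Serpinf2 in 6, Cfi in 5, Kng1 in 4, C8b and Mbl2 in 3, Mbl1 and C4bp in 2 and Cfb in 0.

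**Figure D1:**
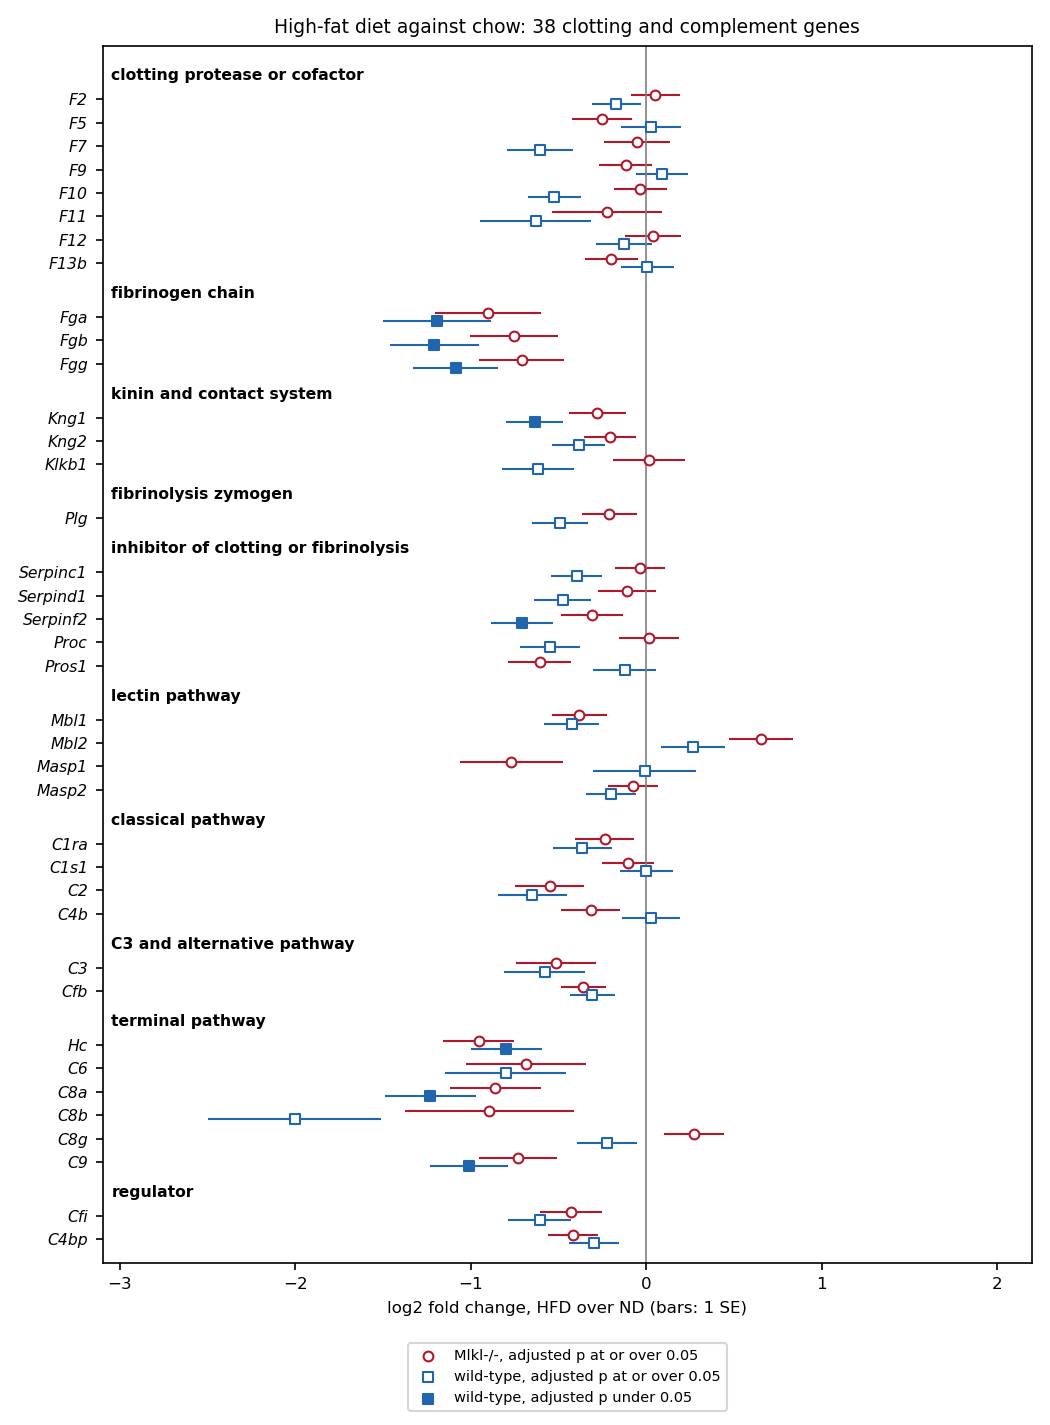
Log2 fold change of HFD over ND for each member, with bars of 1 SE, in Mlkl-/- livers (red circles) and wild-type livers (blue squares), grouped by role. Filled symbols passed the adjusted threshold of 0.05, which 8 members did in wild-type and 0 in Mlkl-/-; most members of both genotypes sit left of 0, and Mbl2 sits right of it.

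The 3 fibrinogen chains, which lie side by side on chromosome 3, had the largest diet differences among the clotting members. Fga (ENSMUSG00000028001, chr3:83026076-83033627, plus strand), the alpha chain, stood at 3666, 3405 and 7979 CPM in Mlkl-/- HFD livers and 6371, 9609.8 and 12157 CPM in Mlkl-/- ND livers. Wild-type livers had 2821, 2120.1 and 2582 CPM of Fga on HFD and 6316, 5013 and 5863 CPM on ND. All wild-type HFD values thus lay below all wild-type ND values, while in Mlkl-/- the third HFD library lay inside the ND range. CPM here is scaled by TMM library sizes, and since each read marks 1 transcript end it is not divided by transcript length. Fga was -0.90 ± 0.30 on the log2 scale in Mlkl-/- (adjusted p = 0.211) and -1.19 ± 0.31 in wild-type (SE; edgeR adjusted p = 0.043), and fell by 1.05 averaged over genotypes (adjusted p = 0.0118).

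Fgb (ENSMUSG00000033831, chr3:83040141-83049863, minus strand), the beta chain, had 4194, 3718 and 6349 CPM in Mlkl-/- HFD and 5263, 8245 and 10542 CPM in Mlkl-/- ND livers. For wild-type the Fgb values were 2486, 1876 and 2415 CPM on HFD and 5679, 4682 and 5295 CPM on ND, again without overlap. Fgg (ENSMUSG00000033860, chr3:83007724-83015049, plus strand), the gamma chain, had 3825, 3003 and 5425 CPM in Mlkl-/- HFD and 4812, 6517 and 8717 CPM in Mlkl-/- ND livers, with 2171, 1671 and 2090.1 CPM in wild-type HFD and 4509, 3598 and 4494 CPM in wild-type ND livers. Both chains overlapped between the Mlkl-/- groups and did not overlap between the wild-type groups. In Mlkl-/- their differences were -0.75 ± 0.25 (Fgb, adjusted p = 0.201) and -0.71 ± 0.24 (Fgg, adjusted p = 0.212). In wild-type Fgb fell by 1.21 ± 0.25 (adjusted p = 0.0194) and Fgg by 1.09 ± 0.24 (adjusted p = 0.0248), and averaged they fell by 0.98 (adjusted p = 0.00543) and 0.90 (adjusted p = 0.00708). Group means of Fgb were 4754 ± 1402 and 8017 ± 2647 CPM in Mlkl-/- HFD and ND, and 2259 ± 334 and 5218 ± 503 CPM in wild-type HFD and ND livers (SD, n = 3 each). Within libraries Fga per Fgg was 0.958 to 1.47 over the 12 libraries and Fgb per Fgg 1.09 to 1.301. The acute phase list, summed below, was also uneven between libraries of a group, and its part in these values was not tested.

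**Figure D2:**
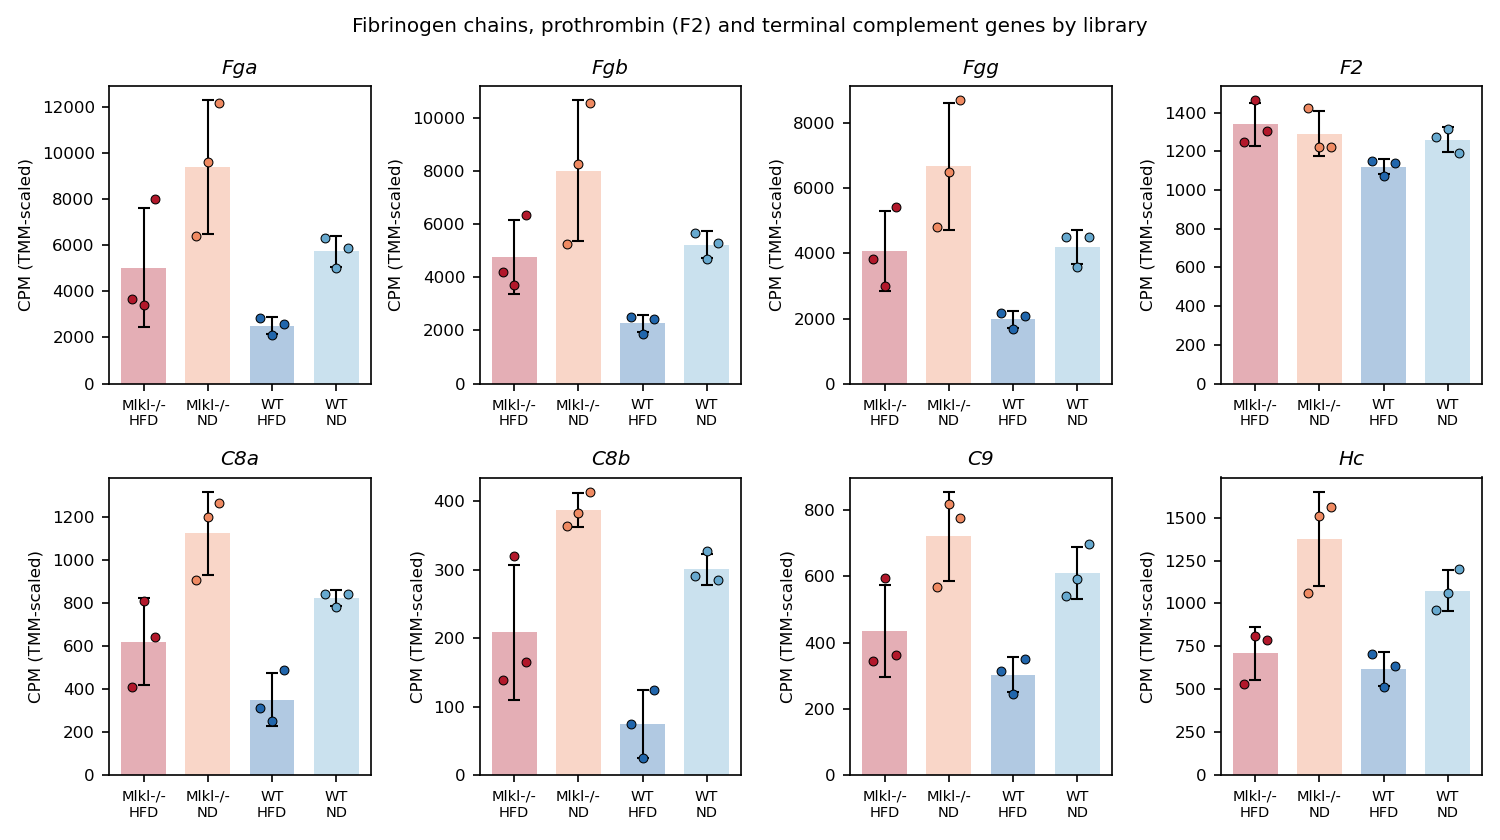
CPM in each library (points) with group mean (bar) and SD (line, n = 3) for the fibrinogen chains, prothrombin (F2) and 4 terminal complement genes. Fibrinogen and the complement genes have their lowest means in the wild-type HFD livers, while F2 stays between 1075 and 1465 CPM in all 12.

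Among the clotting proteases and cofactors 0 of 8 members were called in any comparison by edgeR. F2, prothrombin, had 1249, 1465 and 1304 CPM in Mlkl-/- HFD, 1426, 1225 and 1224 CPM in Mlkl-/- ND, 1148, 1075 and 1138 CPM in wild-type HFD and 1276, 1315 and 1190.2 CPM in wild-type ND livers. Its wild-type HFD values were the lowest by a small margin, with a diet difference of 0.05 ± 0.14 in Mlkl-/- and -0.17 ± 0.14 in wild-type. Factors V, IX and XIII B (F5, F9 and F13b) had Mlkl-/- differences of -0.25, -0.12 and -0.20, and wild-type differences of 0.03, 0.09 and 0.01 that were each smaller than the SE. F7, F10 and F11, the zymogens of factors VII, X and XI, were at -0.05 ± 0.19, -0.03 ± 0.15 and -0.22 ± 0.32 in Mlkl-/-. In wild-type they were at -0.61 ± 0.19 (adjusted p = 0.0805), -0.52 ± 0.15 (adjusted p = 0.0655) and -0.63 ± 0.32 (adjusted p = 0.291), none past the threshold. F7 and F10 are neighbours 1499 bases apart. F7 had 65.3, 82.7 and 61.6 CPM in Mlkl-/- HFD and 75.2, 73.4 and 68.7 CPM in Mlkl-/- ND livers, and 49.9, 33.6 and 60.7 CPM in wild-type HFD against 71.7, 82.2 and 65.3 CPM in wild-type ND livers. F12, the contact factor XII, was at 0.04 in Mlkl-/- and -0.13 in wild-type. With scaling by library size alone, which raised the median of all genes by diet to 0.19 in wild-type and 0.13 averaged, the averaged differences of F2, F5, F9, F12 and F13b turned sign, the largest of them 0.11 in size, and so did the wild-type differences of F2, F12, Pros1 and Masp1, the largest 0.17.

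The kinin and contact genes were lower in wild-type HFD livers without overlap for all 3 members. Kng1 (ENSMUSG00000022875, chr16:23057865-23082078), high molecular weight kininogen, had 1544, 2149 and 1727 CPM in Mlkl-/- HFD and 2047, 2405 and 2127 CPM in Mlkl-/- ND livers, with 1483, 1203 and 1348 CPM in wild-type HFD and 1998, 2054 and 2218 CPM in wild-type ND livers. It was at -0.28 ± 0.16 in Mlkl-/-, and fell by 0.64 in wild-type (adjusted p = 0.0415) and by 0.46 averaged (adjusted p = 0.028). Kng2, the second mouse kininogen gene, was at -0.20 ± 0.15 in Mlkl-/- and -0.38 ± 0.15 in wild-type, and 10.7% of the 50-base words in the last 500 bases of Kng1 transcripts also occur in Kng2, so their counts may share reads. On the opposite strand, 82.7% of these words of Plg lie in Slc22a3, 34.2% of Serpinc1 in Zbtb37 and 50% of Masp2 in Tardbp, and the strand setting of the counting is unknown. Klkb1, plasma prekallikrein, was at 0.01 ± 0.20 in Mlkl-/- and -0.61 ± 0.20 in wild-type (adjusted p = 0.105), with an interaction of 0.63 ± 0.29 (unadjusted p = 0.0459, adjusted p = 0.468).

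Of plasminogen and the 5 inhibitors 1 member was called. Serpinf2 (ENSMUSG00000038224, chr11:75431732-75439591), alpha-2-antiplasmin, had 519, 672 and 712 CPM in Mlkl-/- HFD and 710.4, 831 and 817 CPM in Mlkl-/- ND livers. Wild-type livers had 468, 331 and 442 CPM of it on HFD and 735, 702 and 589 CPM on ND, a fall of 0.71 ± 0.18 on the log2 scale (adjusted p = 0.0348). Averaged over genotypes Serpinf2 fell by 0.51 (adjusted p = 0.0237). Plg, the plasmin zymogen, was at -0.21 ± 0.16 in Mlkl-/- and -0.49 ± 0.16 in wild-type (adjusted p = 0.0931). The antithrombin gene Serpinc1 was at -0.03 and the heparin cofactor II gene Serpind1 at -0.11 in Mlkl-/-, with -0.40 and -0.48 in wild-type. Proc, protein C, was at 0.02 ± 0.17 in Mlkl-/- and -0.55 ± 0.17 in wild-type, with an interaction of 0.57 ± 0.24 (unadjusted p = 0.0341, adjusted p = 0.444). Its cofactor protein S, Pros1, had 42.5, 60.4 and 53.9 CPM in Mlkl-/- HFD and 65.4, 82.7 and 90.8 CPM in Mlkl-/- ND livers, with 62.4, 58.4 and 48.0 CPM in wild-type HFD and 54.8, 53.0 and 76.0 CPM in wild-type ND livers. Pros1 was at -0.61 ± 0.18 in Mlkl-/- (adjusted p = 0.154) and -0.12 ± 0.18 in wild-type, and was the 1 clotting member whose Mlkl-/- HFD values lay wholly below the ND values.

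In complement the terminal pathway had the largest differences, with 4 of its 6 members called averaged over genotypes. Hc (ENSMUSG00000026874, chr2:34983331-35061438), C5, had 531, 812 and 788 CPM in Mlkl-/- HFD and 1063, 1507 and 1563 CPM in Mlkl-/- ND livers. Wild-type livers had 706, 515 and 633 CPM of Hc on HFD and 963, 1059.5 and 1200.3 CPM on ND. The HFD values lay below the ND values in both genotypes without overlap. Hc was at -0.96 ± 0.20 in Mlkl-/- (adjusted p = 0.0599, the lowest of the members there), and fell by 0.80 in wild-type (adjusted p = 0.0399) and by 0.88 averaged (adjusted p = 0.00337). Group means were 710.2 ± 155 and 1378 ± 274 CPM in Mlkl-/- HFD and ND, and 618 ± 96.3 and 1074 ± 119 CPM in wild-type HFD and ND livers (SD, n = 3 each).

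C8a and C8b, which encode the alpha and beta subunits of C8, are neighbours 11131 bases apart on chromosome 4. C8a (ENSMUSG00000035031, chr4:104815679-104876398) had 407, 808 and 641 CPM in Mlkl-/- HFD and 903, 1200.4 and 1265 CPM in Mlkl-/- ND livers, with 313, 249.7 and 487 CPM in wild-type HFD and 842, 781 and 842 CPM in wild-type ND livers. It was at -0.86 ± 0.26 in Mlkl-/- (adjusted p = 0.158), and fell by 1.23 in wild-type (adjusted p = 0.0203) and by 1.05 averaged (adjusted p = 0.0049). C8b (ENSMUSG00000029656, chr4:104766317-104804548) had 139, 321 and 166 CPM in Mlkl-/- HFD and 364, 384 and 414 CPM in Mlkl-/- ND livers. For wild-type the C8b values were 75.3, 25.1 and 125 CPM on HFD and 291, 327 and 285 CPM on ND, with replicate 2 lowest and the highest ratio of largest to smallest value of any member in this group. Its wild-type difference of -2.01 ± 0.50 was the largest of all members and missed the threshold (adjusted p = 0.0525), and averaged it fell by 1.45 (adjusted p = 0.0352). Neither gene overlapped between the diets in either genotype. C8g, the gamma subunit on chromosome 2, was at 0.27 ± 0.17 in Mlkl-/- and -0.22 ± 0.17 in wild-type, neither called.

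C9 (ENSMUSG00000022149, chr15:6445327-6498751), the pore-forming subunit, had 346, 596 and 362 CPM in Mlkl-/- HFD and 568, 819 and 777 CPM in Mlkl-/- ND livers, where replicate 2 on HFD reached into the ND range. Wild-type C9 values were 313, 245 and 352 CPM on HFD and 542, 593 and 697 CPM on ND, without overlap. C9 was at -0.73 ± 0.22 in Mlkl-/- (adjusted p = 0.16), and fell by 1.01 in wild-type (adjusted p = 0.0236) and by 0.87 averaged (adjusted p = 0.00534). C6 had -0.69 ± 0.34 in Mlkl-/- and -0.80 ± 0.34 in wild-type, averaged -0.74 ± 0.24 (adjusted p = 0.0923), and did not overlap between diets in either genotype.

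The lectin route divided. Mbl1 (ENSMUSG00000037780, chr14:41151458-41159601), mannose-binding lectin A, had 168, 119.6 and 154 CPM in Mlkl-/- HFD and 197, 177 and 201 CPM in Mlkl-/- ND, with 106, 99.6 and 133 CPM in wild-type HFD and 148, 138 and 169 CPM in wild-type ND livers. Mbl2 (ENSMUSG00000024863, chr19:30232942-30239687), mannose-binding lectin C, had 362, 308 and 409 CPM in Mlkl-/- HFD and 222, 250.4 and 213 CPM in Mlkl-/- ND livers, and 348, 306 and 361 CPM in wild-type HFD and 283, 207 and 353 CPM in wild-type ND livers. Averaged over genotypes Mbl1 fell by 0.40 (adjusted p = 0.0408) and Mbl2 rose by 0.46 (adjusted p = 0.043), the 1 member called higher. Per library the ratio of Mbl2 to Mbl1 was 2.16 to 2.65 in Mlkl-/- HFD, 1.06 to 1.41 in Mlkl-/- ND, 2.72 to 3.28 in wild-type HFD and 1.5 to 2.09 in wild-type ND livers. The HFD and ND ratios did not overlap in either genotype. The lectin proteases were uncalled, with Masp1 at -0.77 ± 0.30 in Mlkl-/- and -0.01 ± 0.29 in wild-type and Masp2 at -0.08 ± 0.14 and -0.20 ± 0.14.

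In the classical route C2 was the 1 of 4 members called. C2 (ENSMUSG00000024371, chr17:34862604-34898265) had 48.7, 101 and 68.1 CPM in Mlkl-/- HFD and 102, 109 and 106 CPM in Mlkl-/- ND livers, with 64.2, 59.3 and 63.4 CPM in wild-type HFD and 85.7, 107 and 99.8 CPM in wild-type ND livers. It did not overlap between diets in either genotype and fell by 0.60 averaged (adjusted p = 0.0196). The C1 protease genes C1ra and C1s1 were at -0.24 and -0.10 in Mlkl-/- and -0.36 and 0.00 in wild-type, and C4b was at -0.32 and 0.03. Their near copies limit these values, since 19.1% of the 3′ words of C1ra, 26.6% of C1s1 and 38.1% of C4b occur in another gene as well.

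C3 (ENSMUSG00000024164, chr17:57203970-57228136), on which all routes meet, had 3331, 3574 and 5788 CPM in Mlkl-/- HFD and 4824, 5496 and 7797 CPM in Mlkl-/- ND livers, and 3582, 2909 and 3248 CPM in wild-type HFD and 5235, 4227 and 5088 CPM in wild-type ND livers. The wild-type groups did not overlap and the Mlkl-/- groups did, and the averaged difference of -0.55 ± 0.16 was short of the threshold (adjusted p = 0.055). Cfb (ENSMUSG00000090231, chr17:34856374-34862518), factor B of the alternative route, had 778, 823 and 808 CPM in Mlkl-/- HFD and 1046, 1012 and 1030.0 CPM in Mlkl-/- ND, with 744, 696 and 707 CPM in wild-type HFD and 917, 863 and 878 CPM in wild-type ND livers. Its spread within groups was small, and the 4 groups did not overlap on either axis of the design. Cfb fell by 0.33 averaged (adjusted p = 0.039). Cfb and C2 lie 86 bases apart, and 64.2% of the 3′ words of Cfb and 28.8% of C2 also occur in the joint model Gm20547, so reads of the pair may have been split.

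The regulators C4bp (ENSMUSG00000026405, chr1:130634773-130661632) and Cfi (ENSMUSG00000058952, chr3:129835884-129875332), the binding protein of C4b and the protease factor I, were both called averaged. C4bp had 502, 488 and 609 CPM in Mlkl-/- HFD and 704, 673 and 760.4 CPM in Mlkl-/- ND livers, with 462, 440.2 and 507 CPM in wild-type HFD and 551, 557 and 625 CPM in wild-type ND livers. Cfi had 497, 616 and 603 CPM in Mlkl-/- HFD and 620.0, 902 and 787 CPM in Mlkl-/- ND livers, with 593, 408 and 469 CPM in wild-type HFD and 759, 707 and 771 CPM in wild-type ND livers. Neither overlapped between diets in either genotype. They fell by 0.36 (C4bp, adjusted p = 0.0449) and 0.52 (Cfi, adjusted p = 0.0237).

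Set side by side, the classes differed in how the diet difference was spread over the genotypes. In Mlkl-/- livers the median was -0.20 over the clotting members and -0.42 over the complement members (all genes -0.02), and in wild-type livers -0.51 and -0.39 (all genes -0.01). The Mlkl-/- clotting median was -0.29 without Mlkl-/- HFD replicate 2 and -0.096 without Mlkl-/- ND replicate 2. HFD values lay wholly below ND values for 1 of 20 clotting and 9 of 18 complement members in Mlkl-/- livers, against 7.49% of all genes. In wild-type livers they did so for 14 of 20 clotting and 12 of 18 complement members, against 15.2% of all genes. In both genotypes at once this held for 0 clotting and 9 complement members (Mbl1, C2, Cfb, Hc, C6, C8a, C8b, Cfi and C4bp), against 2.25% of all genes. Some gaps in Mlkl-/- livers were narrow. The highest HFD and lowest ND values there were 616 and 620 CPM for Cfi, 285 and 288 for C6 and 101 and 102 for C2. Overlap was counted on TMM-scaled CPM only, so its dependence on scaling was not tested. The interaction, which tests the difference between genotypes directly, was called for no single member, and its median was 0.36 over clotting and 0.11 over complement members. The complement median of the interaction was 0.22 without Mlkl-/- HFD replicate 1 and -0.03 without Mlkl-/- HFD replicate 2, so 1 library turned its sign, and the clotting median was 0.22 without wild-type HFD replicate 2. The classes were compared as counts and medians, with no test between them.

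The wild-type calls rest on few libraries. Without any 1 of the 3 wild-type ND libraries, or without wild-type HFD replicate 2, 0 clotting and 0 complement members were called in wild-type. Over all genes the wild-type calls fell as well, from 366 higher and 400 lower in the main fit. They were 119 and 79 without wild-type ND replicate 1, 70 and 30 without replicate 2 and 73 and 40 without replicate 3. Without wild-type HFD replicate 2 they were 45 and 18. Without wild-type HFD replicate 1 the clotting and complement counts were 1 and 0, and without wild-type HFD replicate 3 they were 2 and 4. Without Mlkl-/- ND replicate 2 they were 2 and 2, and without Mlkl-/- HFD replicate 2 they were 5 and 5. Averaged over genotypes the clotting count was 3 without Mlkl-/- HFD replicate 1, Mlkl-/- ND replicate 2, wild-type HFD replicate 2 or wild-type ND replicates 1 or 2. The averaged complement count was 3 without Mlkl-/- ND replicate 2 or wild-type ND replicate 2, 4 without wild-type HFD replicate 2 or wild-type ND replicates 1 or 3, and 5 without Mlkl-/- HFD replicate 1, Mlkl-/- ND replicate 3 or wild-type HFD replicate 1. Over all genes the averaged fits without 1 library called 327 to 1229 higher and 268 to 800 lower, against 646 and 656. With the level of the 8 loci as a term, 0 members were called in wild-type or averaged over genotypes. Over all genes that term left 82 called higher and 38 lower in wild-type, against 366 and 400 without it. Averaged it left 115 and 81, against 646 and 656. With the term Fga was -0.86 in wild-type (adjusted p = 0.237), C8a -1.08 (adjusted p = 0.13), and Hc -0.60 averaged (adjusted p = 0.0805). The sample titles carry a code that the labels do not explain, 23 or 27 on ND and 25 or 29 on HFD. Codes 23 and 25 were pooled as a lower level and 27 and 29 as a higher one, a pairing the labels do not give. With this level as a term 4 clotting and 3 complement members were called in wild-type livers and 5 and 10 averaged.

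Between genotypes, 0 members were called on HFD, on ND or averaged over diets by edgeR, and the fibrinogen chains had the largest differences among the clotting members. Fga was 1.00 ± 0.30 (adjusted p = 0.17), Fgb 1.07 ± 0.25 (adjusted p = 0.124) and Fgg 1.05 ± 0.24 (adjusted p = 0.122), Mlkl-/- over wild-type on HFD, where all genes had 0.00553% called higher and 0.0221% called lower. For Fgb the group means were 4754 ± 1402 CPM in Mlkl-/- HFD and 2259 ± 334 CPM in wild-type HFD livers (SD, n = 3 each), and none of the 3 chains overlapped. Unadjusted, 14 members had p under 0.05 on HFD (10 of 20 clotting, 4 of 18 complement), beside 15.5% of all genes. DESeq2 called 4 clotting members higher there (Fga, Fgb, Fgg and Serpinf2), and limma-voom called 0. Over all genes DESeq2 called 101 higher and 297 lower on HFD, and limma-voom 1 and 3. The values lay wholly above wild-type for 13 clotting members and 2 complement members (Cfb, whose sign turns with scaling by library size alone, and C8b), against 10.6% of all genes, and wholly below for 0. Medians on HFD were 0.38 over clotting and 0.22 over complement members, beside 0.01 over all genes, or 0.21 and 0.05 beside -0.16 with scaling by library size alone. The clotting median there was 0.21 without Mlkl-/- HFD replicate 2.

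Cell type markers are given for the genotypes on HFD too, where only sinusoidal endothelial ones were called. Sinusoidal endothelial markers had 11 of 11 below 0 (median -1.003) and 2 called lower, Fcgr2b at -1.21 and Dnase1l3 at -1.17, both named after their values were seen. Their summed levels were 146 to 185 CPM in Mlkl-/- HFD and 276 to 425 CPM in wild-type HFD livers, without overlap. Of the Kupffer cell markers 0 were called and 10 of 10 were below 0 (median -0.88), and of the recruited macrophage markers likewise 0 and 10 of 10 (median -1.51). Stellate and fibroblast markers had 0 of 11 called and a median of -1.01, and hepatocyte markers 0 of 10 called and a median of 0.54. The part of these markers in the genotype differences of the members was not tested.

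C8b had 139, 321 and 166 CPM in Mlkl-/- HFD against 75.3, 25.1 and 125 CPM in wild-type HFD livers, a difference of 1.48 ± 0.49 (adjusted p = 0.221), and C8a differed by 0.82 ± 0.26 (adjusted p = 0.181). Serpinf2 differed by 0.62 ± 0.18 (adjusted p = 0.157), F7 by 0.54 ± 0.19 and F10 by 0.46 ± 0.15. Masp1, F5 and C1s1 had the lowest values, at -0.39, -0.25 and -0.12.

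On ND the same 3 chains stood 0.71, 0.62 and 0.67 above wild-type (adjusted p of 0.848, 0.816 and 0.755), with Fga and Fgg not overlapping. There 4 members had an unadjusted p under 0.05 (beside 5.51% of all genes), and DESeq2 and limma-voom called 0. Over all genes edgeR called 0% higher and 0.00553% lower, DESeq2 called 26 genes higher and 23 lower, and limma-voom called 0. Mlkl-/- ND values lay wholly above wild-type ND values for 3 clotting and 7 complement members, against 4.93% of all genes. The medians on ND were 0.09 over clotting and 0.27 over complement members, the clotting one 0.033 without Mlkl-/- ND replicate 2 and 0.16 without Mlkl-/- ND replicate 1. Averaged over diets, Fgg was 0.86 ± 0.17 (adjusted p = 0.0898), Fgb 0.85 ± 0.18 (adjusted p = 0.0988) and Fga 0.86 ± 0.21 (adjusted p = 0.187), with 13 members at an unadjusted p under 0.05 (beside 10.6% of all genes) and 0% of all genes called higher and 0.0166% lower. DESeq2 called Fga, Fgb, Fgg and C8a higher in that average, and limma-voom 0 members. Over all genes DESeq2 called 85 higher and 122 lower in it, and limma-voom 0 and 2. The comparisons share their libraries: wild-type HFD livers stand in the wild-type diet difference and in the genotype difference on HFD, so a low value there enters both.

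**Figure D3:**
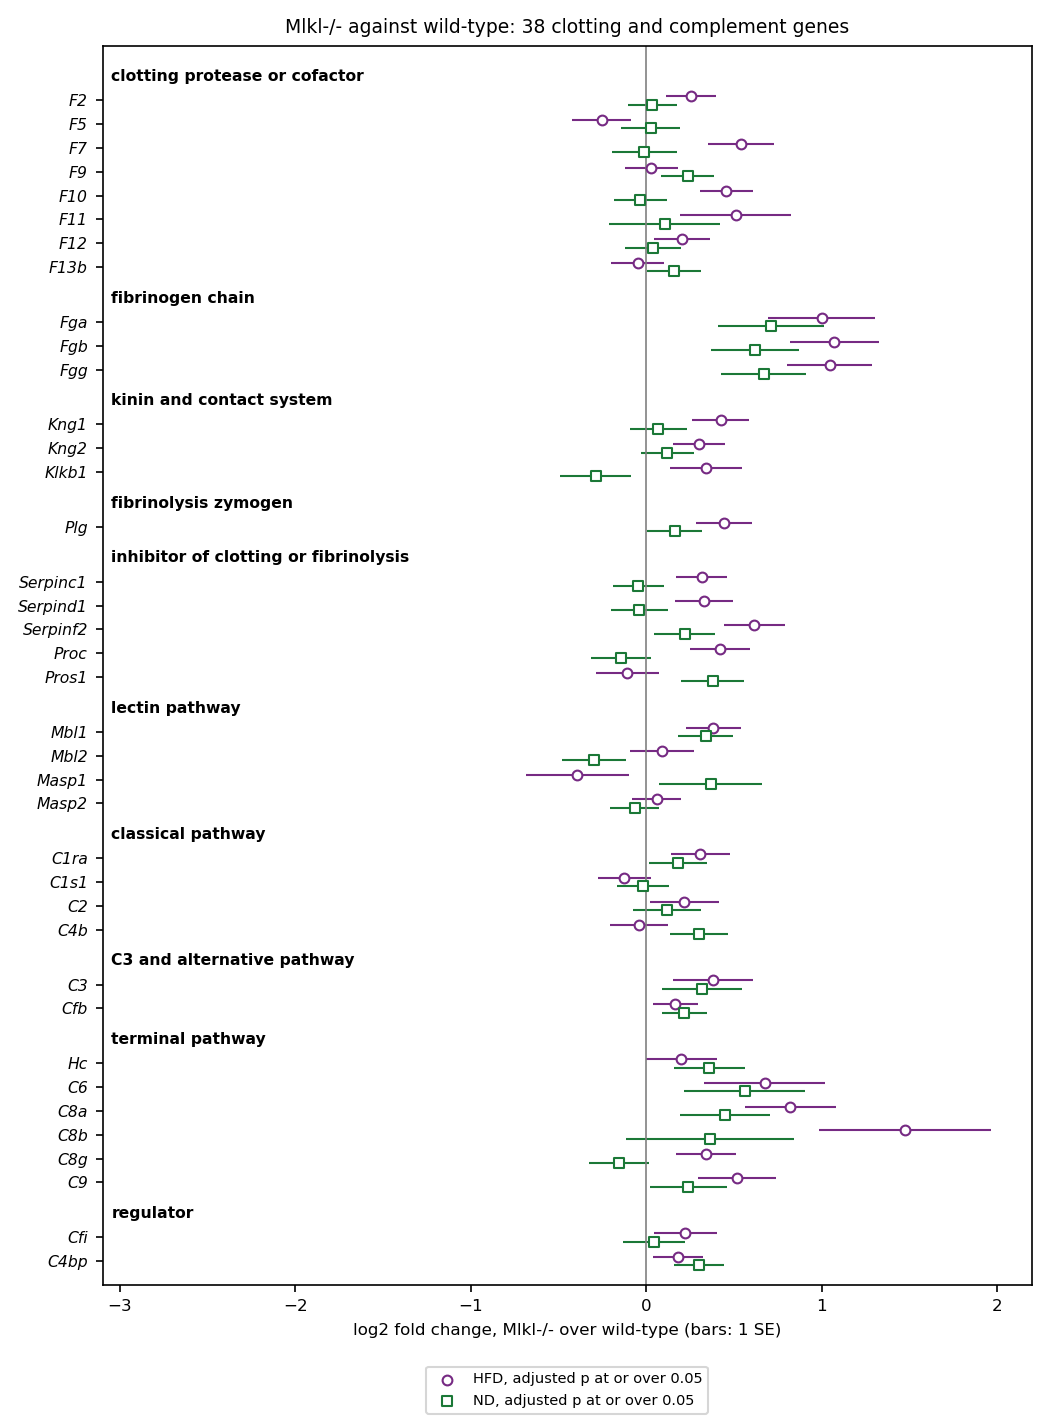
Log2 fold change of Mlkl-/- over wild-type for each member, with bars of 1 SE, on HFD (purple circles) and on ND (green squares), grouped by role. All symbols are open since no member passed the adjusted threshold; the fibrinogen chains sit between 1.00 and 1.07 on HFD and between 0.62 and 0.71 on ND.

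Deviations per library, each gene's log2 CPM minus its mean over the 12 libraries, show how the groups of members moved within groups of animals. Fibrinogen deviated by -0.18, -0.39 and 0.56 in Mlkl-/- HFD, 0.31, 0.87 and 1.24 in Mlkl-/- ND, -0.83, -1.23 and -0.90 in wild-type HFD and 0.31, -0.0036 and 0.24 in wild-type ND libraries. The terminal pathway deviated by -0.45, 0.34 and -0.18 in Mlkl-/- HFD, 0.44, 0.65 and 0.68 in Mlkl-/- ND, -0.73, -1.32 and -0.33 in wild-type HFD and 0.22, 0.32 and 0.35 in wild-type ND libraries. Mlkl-/- HFD replicate 2 was above its mean for the terminal pathway and below it for fibrinogen, and replicate 3 was the reverse. Acute phase genes, 17 in number and without the members, deviated by -0.02, -0.45 and 1.01 in Mlkl-/- HFD, 0.80, 0.33 and 1.37 in Mlkl-/- ND, -0.40, -0.67 and -0.89 in wild-type HFD and -0.60, -0.62 and 0.16 in wild-type ND libraries. Replicate 3 was the highest library for both fibrinogen and the acute phase list in each Mlkl-/- group. Hepatocyte markers were lowest, at -0.85, in wild-type HFD replicate 2, where fibrinogen and the terminal pathway were lowest. The part of either list in the members' values was not tested.

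**Figure D4:**
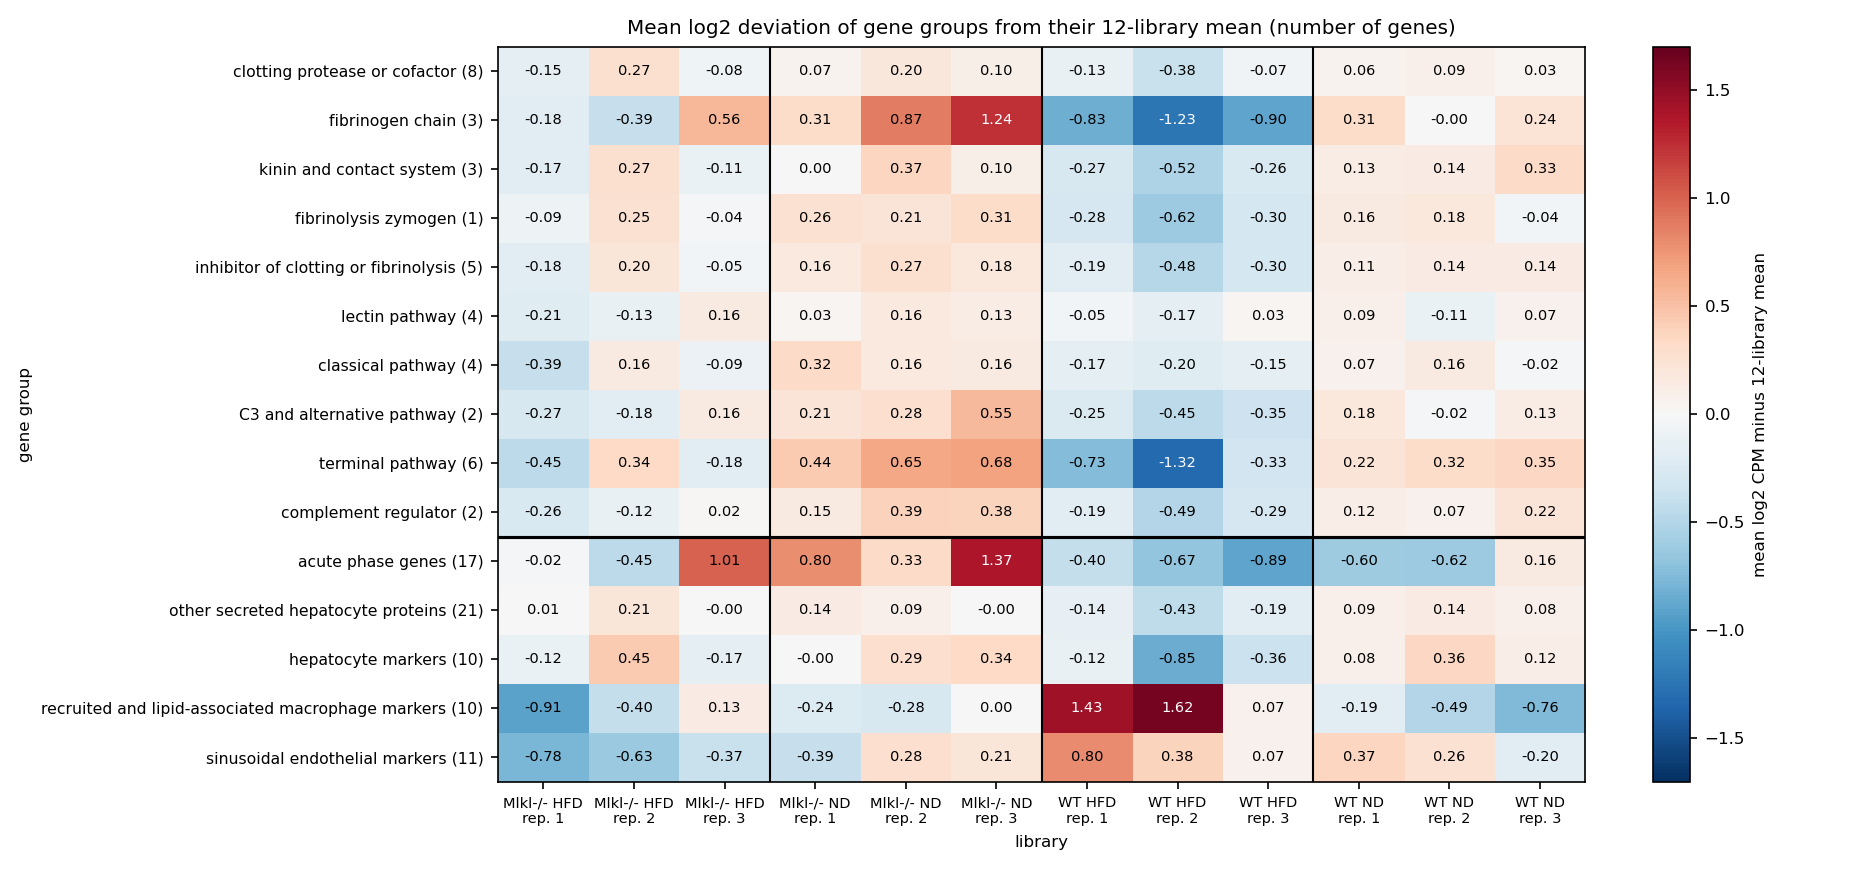
Mean deviation of each gene group (rows, number of genes in brackets) in each library (columns, log2 CPM minus the 12-library mean), with the 10 member groups above the line and 5 other lists below it. Fibrinogen and terminal pathway are lowest in wild-type HFD replicate 2 at -1.23 and -1.32, and recruited macrophage markers are highest there at 1.62.

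Other clotting and complement genes of liver were described from lists chosen with earlier results of these data known. Of 14 tested other liver clotting genes, 0 were called in Mlkl-/- livers and 1 in wild-type livers, Cpb2, the fibrinolysis inhibitor TAFI. It was at -0.74 in Mlkl-/- (adjusted p = 0.0548) and fell by 0.74 in wild-type (adjusted p = 0.0194). Of 19 other complement genes 0 and 2 were called: vitronectin, Vtn, fell by 0.68 (adjusted p = 0.0273) and C1 inhibitor, Serping1, by 0.58 (adjusted p = 0.0474) in wild-type. Of 12 vascular and cellular clotting genes 0 and 1 were called, the annexin Anxa2, which rose by 2.11 in wild-type (adjusted p = 0.0363), and the list's median was -0.10 in Mlkl-/- and 0.79 in wild-type. Of 11 complement receptors and surface regulators none was called in either genotype. The list's median was -0.21 in Mlkl-/- and 0.69 in wild-type, where 10 of 11 were above 0. Cd59a and Cr1l were at 0.27 and -0.21 in Mlkl-/- and 0.37 and -0.09 in wild-type.

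Among 16 hepatocyte transcription factors none was called in Mlkl-/-, where Foxa3 was at 0.28, and in wild-type Foxa3 fell by 1.01 (adjusted p = 0.0173). Of 7 tested genes of interleukin-6 and STAT3 signalling none was called in either genotype, with Il6st at -0.05 in Mlkl-/- and 0.30 in wild-type and Stat3 at -0.17 and -0.38. Acute phase genes had 0 of 17 called in Mlkl-/- and 3 in wild-type, Hamp (fell by 1.69), Itih3 (fell by 1.06) and Saa4 (fell by 0.85). Other secreted hepatocyte proteins had 0 of 21 called in Mlkl-/- and 6 in wild-type, all lower, led by Fetub at -0.97, Ahsg at -0.87, Itih2 at -0.81 and Itih1 at -0.69. The list medians were -0.01 in Mlkl-/- and -0.50 in wild-type, beside -0.20 and -0.51 over the clotting members.

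Marker lists of liver cell types moved beside the members. Of 10 hepatocyte markers 0 were called in either genotype, with medians of -0.13 in Mlkl-/- and -0.69 in wild-type, and Alb was at -0.01 and -0.56. Recruited macrophage markers had 0 of 10 called in Mlkl-/- and 4 in wild-type (Gpnmb rose by 4.14, Mmp12 by 3.66, Cx3cr1 by 2.15 and Ccr2 by 1.83), with summed levels of 73.5 to 104 CPM in Mlkl-/- HFD, 120 to 167 CPM in Mlkl-/- ND, 97.2 to 256 CPM in wild-type HFD and 90.3 to 114 CPM in wild-type ND livers. Stellate and fibroblast markers had 0 of 11 called in Mlkl-/- and 1 in wild-type (Lum rose by 1.20), and sinusoidal endothelial markers likewise 0 of 11 and 1 (Dnase1l3 rose by 0.60). The sinusoidal markers were below 0 for 11 of 11 in Mlkl-/- (median -0.63, 8 at an unadjusted p under 0.05) and above 0 for 10 of 11 in wild-type (median 0.27). Adipocyte markers had 1 of 7 called in each genotype, Lipe, which rose by 1.19 in Mlkl-/- and 1.18 in wild-type. None was called among the Kupffer cell markers (medians -0.45 in Mlkl-/- and 0.46 in wild-type, Clec4f at -0.37 in Mlkl-/- and 0.59 in wild-type, Cd5l at -0.53 and 0.86) or the cholangiocyte markers (Spp1 at -1.25 and 1.35, Sox9 at -0.27 and -0.74). The same held for lymphocyte markers (Cd79a at 0.78 and -0.26), neutrophil markers (S100a9 at -0.76 and 0.49, Csf3r at 0.30 and 0.39) and platelet markers (Itga2b at 0.56 and -0.48, Pf4 at -0.06 and 0.33), whose summed levels stayed under 10 CPM in every library. Only 7 of 9 lymphocyte, 3 of 7 neutrophil and 3 of 7 platelet markers passed the filter and could be called. No marker was at 0 in all libraries. Spp1 also stands in the macrophage list, and Vtn in that of other secreted proteins. Further genes are shared between lists, so the lists are not independent of each other. The part of cell composition in the members' values was not tested.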

How the data were processed

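RNA from the livers of 12 mice was sequenced with a 3′ mRNA kit (QuantSeq), per the labels' protocols. The authors deposited raw counts per Ensembl gene. Per the submitters' processing notes these were made with cutadapt 1.9, HISAT2 and featureCounts on mm10, with limma named for the analysis. Neither the strand setting nor the annotation of the counting is stated there, so antisense or overlapping genes may share reads. Groups follow the genotype and diet labels.

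From the counts, R 4.3.3 with edgeR 4.0.16 gave TMM-scaled CPM (prior count 2 for logs) and quasi-likelihood tests with robust dispersions, a mean for each of the 4 groups (8 residual degrees of freedom). filterByExpr (minimum count 10, total 15) kept 18098 genes, over which p-values were adjusted. The p-values measure the spread between these animals, since nothing more is said of their source. Alternatives were DESeq2 1.42.0, limma-voom (limma 3.58.1), other scalings and filters, added terms, and each library left out. The test was checked on simulated counts, where false calls were a larger share of the calls than the nominal 0.05. Near-identical 3′ ends were counted as shared 50-base words in the last 500 bases of GENCODE transcripts, and gene coordinates are those of that mm10 annotation.

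Members and gene lists were chosen with earlier results of these data known. Values in every library are given for members called in any comparison, for the 3 members per class with the largest averaged diet difference, for the fibrinogen chains and for C3. F2, F7 and Pros1 were added after their values were seen. Of other lists, up to 4 called genes are named, or up to 2 with the highest mean CPM where none was called. Alb, and Saa4 between genotypes, are named outside that rule. Some genes of these lists are not reported here.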

Additional observations from a re-analysis of the deposited data

How the results depend on the processing

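Counts are of clotting and complement members called. For the diet in Mlkl-/- livers they were 0 and 0: with genes of at least 1 count kept, 0 and 1, with DESeq2, 0 and 5, and the 8-locus term gave a clotting median of -0.070. For the diet in wild-type livers, 5 and 3 were called: 2 clotting members and medians of -0.32 and -0.21 with scaling by library size alone, 5 complement members with genes of at least 1 count, 10 and 7 with DESeq2, 0 and 0 with the 8-locus level, and 8 and 6 with the compared groups alone. Averaged over genotypes, 5 and 10 were called: 3 and 6 with scaling by library size alone, where the clotting median was -0.17, and 0 and 0 with the 8-locus level. Between genotypes on HFD, library size alone gave medians of 0.21 and 0.045, and 2 clotting members were called with genes of at least 1 count and 4 with DESeq2. Averaged over diets 2 clotting members were called with genes of at least 1 count, and 3 clotting and 1 complement member with DESeq2. Scaling by library size alone called 921 genes higher and 181 lower on HFD in wild-type, against 366 and 400. There the 8-locus level gave 82 and 38, and DESeq2 733 and 732. Averaged over genotypes the 8-locus level gave 115 and 81, against 646 and 656. Over all genes DESeq2 called 310 higher and 204 lower for the diet in Mlkl-/-, and 101 and 297 between genotypes on HFD.

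With 1 library left out, the counts ran from 0 to 2 and 0 to 2 for the diet in Mlkl-/-, 0 to 6 and 0 to 5 in wild-type, and 3 to 6 and 3 to 8 averaged. Between genotypes on HFD the clotting count ran from 0 to 1 and the clotting median from 0.21 to 0.46, and the clotting median of the interaction ran from 0.22 to 0.44. The Mlkl-/- diet calls appeared without Mlkl-/- ND replicate 1 (2 and 2), Mlkl-/- HFD replicate 2 (0 and 2) or replicate 3 (1 and 0), and the genotype call on HFD without Mlkl-/- ND replicate 1. Over all genes those Mlkl-/- diet fits called 427 higher and 302 lower, 73 and 24, and 41 and 15, against 38 and 27. That genotype fit called 11 and 64 over all genes, against 1 and 4. Over the named genes and all alternatives, 2202 values kept their side of the threshold, 166 lost the call and 48 gained one. Of these 2416 values only 491 belonged to results called in the main fit, and the 166 lost calls are among those 491. 23 uncalled values turned sign (16 of them in the interaction), and 0 called ones did. Causes were not tested. No paired analysis was possible because the labels give each library a different animal number and name no pairs. No limit of detection was measured.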

Other observations

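The ratio of C8b to C8a, neighbouring genes of a shared protein, was taken up after the values were seen. It was 0.341, 0.397 and 0.259 in Mlkl-/- HFD, 0.403, 0.320 and 0.328 in Mlkl-/- ND, 0.240, 0.101 and 0.256 in wild-type HFD and 0.346, 0.419 and 0.338 in wild-type ND libraries. The wild-type HFD ratios lay below those of the other 3 groups in all 3 libraries, with replicate 2 lowest. Among acute phase genes, Saa4 stood 1.31 higher on the log2 scale in Mlkl-/- than in wild-type livers on HFD (edgeR adjusted p = 0.0201). It was the 1 called of the 17 in that list, of which 17 were above 0 on HFD (median 0.81, all genes 0.01). On ND 0 were called and 16 of 17 were above 0 (median 0.89). The part of this list in the genotype differences of the fibrinogen chains was not tested.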
